A study of Mus musculus with 20 samples.

Results

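The striatum of 20 adult male mice was examined for genes whose read counts divided the High-Active line from the Control line with no overlap between mice. Genes were chosen by the rule that the lowest High-Active value lay above the highest Control value, or the highest High-Active value below the lowest Control value, in CPM, among the 14792 of 39179 listed genes with more than 1 CPM in at least 3 of the 20 mice. CPM is the count of a gene over the summed counts of all genes in that mouse, times 1000000. The rule was met by 37 genes, 0.25% of those tested, and the 35 described here are those left after Stx3 and Coq7 were set aside. Of the 35, 18 were higher and 17 were lower in High-Active mice. The members were selected on the line difference itself, so their levels in the lines are given as a description and no test of that difference is reported for them.

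Both lines were bred from a cross of 8 inbred strains, and the mice came from generation 17 of breeding for increased home cage activity (High-Active) or of the line kept beside it (Control). Each line is represented once, so line and selection cannot be told apart from chance differences between closed populations. At about 6.5 months of age, 5 mice of each line received an intraperitoneal injection of saline and 5 received 0.25 mg/kg amphetamine, and the striatum was collected 2 hours later. Line and injection together gave 4 groups of 5 mice. The sires and dams in the labels placed the 10 Control mice in 8 families and the 10 High-Active mice in 5 families, and 9 of the High-Active mice had a full sibling among those sequenced. The methods of the study place every mouse in a family of its own, and the labels were followed here. The gene reads of a mouse numbered 32388971 to 53710713, so that 3 counts corresponded to 0.0559 to 0.0926 CPM.

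The striatum is the input nucleus of the basal ganglia and consists mainly of medium spiny neurons, which receive dopamine and cortical glutamate. In mouse lines bred apart for many generations, alleles from the founder strains become common or are lost by selection and by drift, and alleles at neighbouring genes are inherited together. Levels of an mRNA can differ between such lines for reasons close to the gene or far from it, and a read can also be assigned to a different gene where a near-identical copy exists. Complete separation is a statement about overlap and not about size.

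All 14 markers of medium spiny neurons had a median above 1 CPM, and their mean log2 CPM was 8.20 ± 0.083 (SD) in Control and 8.09 ± 0.23 in High-Active mice (n = 10 each). The mean log2 CPM of 12 cortical excitatory neuron markers, all of them over a median of 1 CPM, was 5.57 ± 0.43 in Control and 4.96 ± 0.71 in High-Active mice, and their summed level ran from 739 to 1573 CPM and from 477 to 1657 CPM (permutation test, two-sided, p = 0.0318, adjusted over 7 marker lists p = 0.126). None of the 35 genes was in any of the 7 marker lists, of which the other 6 had adjusted p values of 0.126 to 0.416. With the cortical and oligodendrocyte scores as covariates, the log2 fold changes of the 35 genes were 0.715 to 1.18 times their values without them, and 35 of 35 kept their sign. The genes were selected on a complete difference between the lines, so a kept sign was likely beforehand. The other lists were not used as covariates, among them microglia (permutation test, adjusted p = 0.126). Whether tissue content contributes to the differences was not tested. In tissue RNA, fewer cells of a type and less RNA per cell cannot be told apart.

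Sequence bears on several of the 35 genes, because pseudogenes among them are near copies of other genes. Gm6166, annotated as a processed pseudogene on chromosome 9, matched Fabp5 at 402 of 407 aligned bases (98.8%), and Fabp5 is itself among the 35. Gm7094, an unprocessed pseudogene on chromosome 1, matched Cetn4 at 364 of 366 bases (99.5%), and Cetn4 is also among the 35. Gm7887, a processed pseudogene on chromosome 6, matched Pcnp at 535 of 537 bases (99.6%). The stretches of 100 bases shown here, the length of 1 sequenced read, are those with the most differences inside the coding part of the parent gene, and capitals mark the bases that differ within each pair. The Gm6166 stretch lies at chr9:57484223-57484322 (GRCm38, plus strand) and corresponds to coding positions 259 to 358 of Fabp5.
Gm6166: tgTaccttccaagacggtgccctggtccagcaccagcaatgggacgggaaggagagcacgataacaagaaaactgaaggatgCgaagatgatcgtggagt
Fabp5: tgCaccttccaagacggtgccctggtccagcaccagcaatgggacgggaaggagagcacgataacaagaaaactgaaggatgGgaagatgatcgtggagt
The Gm7887 stretch lies at chr6:48524648-48524747 (GRCm38, minus strand) and corresponds to coding positions 344 to 443 of Pcnp.
Gm7887: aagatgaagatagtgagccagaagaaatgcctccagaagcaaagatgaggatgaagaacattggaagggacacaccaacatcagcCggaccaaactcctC
Pcnp: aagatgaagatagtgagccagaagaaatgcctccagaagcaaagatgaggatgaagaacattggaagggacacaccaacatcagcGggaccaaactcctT
The Gm7094 stretch, from chromosome 1 (plus strand), corresponds to coding positions 61 to 160 of Cetn4.
Gm7094: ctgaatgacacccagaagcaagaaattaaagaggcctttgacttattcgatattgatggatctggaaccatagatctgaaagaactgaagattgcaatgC
Cetn4: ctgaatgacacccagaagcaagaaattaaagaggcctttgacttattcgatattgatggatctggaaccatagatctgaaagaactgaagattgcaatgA

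Of the 33 members with an annotated transcript of at least 100 bases, 12 had no stretch of 100 bases in the transcript of any other gene, on either strand. In 6 of the 33 more than 10% of such stretches occurred elsewhere. These were Gm7887 (75.1%, with Pcnp), Gm7094 (38.2%, with Cetn4), Csnk2a1 (28.4%, with the predicted gene Gm10031), Gm6166 (25.8%, with Fabp5), A230103J11Rik (13.1%, mostly with Tnpo2 on the opposite strand) and Wdr83 (12.9%, mostly with Wdr83os on the opposite strand). Exons of 16 of the 35 overlapped those of another gene, 15 of them on the opposite strand and 2 on the same strand. The strand setting used in counting is not given in the sources used here, so reads in such overlaps could have been split or set aside as ambiguous.

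Fabp5 and Gm6166 separated the lines in opposite directions. Fabp5 encodes a fatty acid binding protein of the cytosol, and its level was 42.2 to 69.2 CPM in Control mice (median 56.6) and 26.3 to 40.9 CPM in High-Active mice (median 35.1). Gm6166 was at 0.0526 to 8.59 CPM in Control mice (median 4.29) and at 18.8 to 27.8 CPM in High-Active mice (median 23.7). The log2 fold change, High-Active over Control, was -0.73 for Fabp5 (SE 0.088) and 2.46 for Gm6166 (SE 0.43). Summed in each mouse, the pair was at 48.8 to 73.5 CPM in Control (median 61.6) and at 45.1 to 68.5 CPM in High-Active mice (median 58.8), so that the sum did not separate the lines. Gm6166 took 0.0852% to 14.0% of that sum in Control and 37.9% to 41.6% in High-Active mice. Genes chosen in opposite directions must differ in this share, so its separation follows from the rule, whereas the overlap of the sums does not. Reads aligned to more than 1 place, 2385450 to 4235826 in a mouse, were among the unassigned reads left out. Sums of this pair and of the pairs below therefore lack reads that match both genes equally. Control mice 411 and 457 stood apart, with 0.0526 and 0.165 CPM of Gm6166, while the other 8 Control mice had 3.67 to 8.59 CPM.

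**Figure D1:**
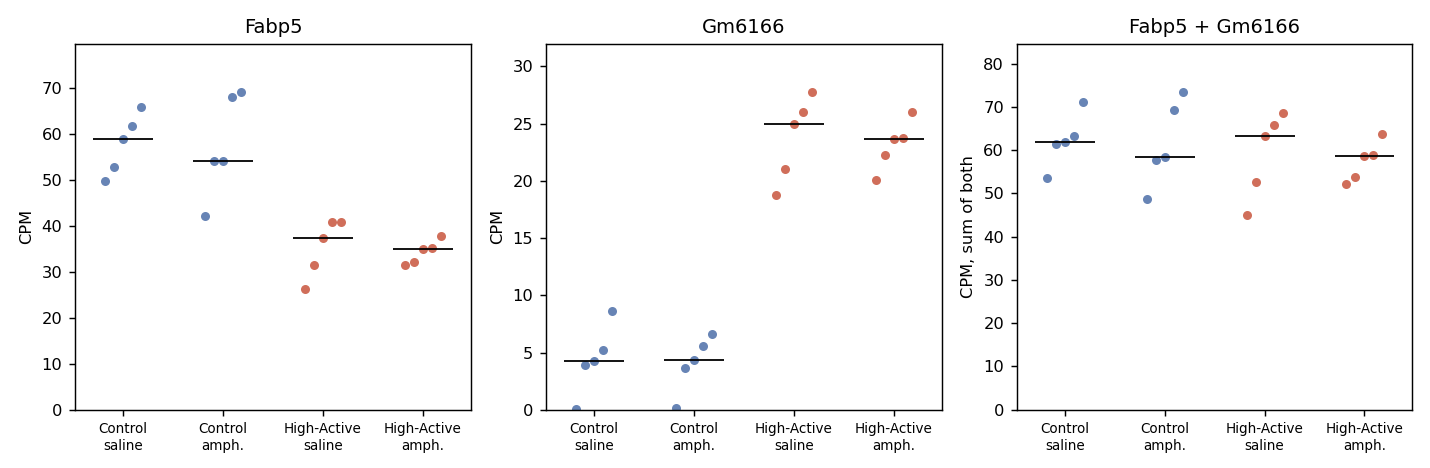
CPM (vertical axes, starting at 0) of Fabp5, of Gm6166 and of their sum in each of the 20 mice, with 5 points per group and a bar at the group median (amph., amphetamine). Fabp5 lies lower and Gm6166 higher in every High-Active mouse, while the sums overlap, at 48.8 to 73.5 in Control and 45.1 to 68.5 in High-Active mice.

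Of the other pseudogene pairs, Cetn4 and Gm7094 were both members. Cetn4 encodes a centrin, a calcium-binding protein of centrioles and ciliary basal bodies, and was at 2.78 to 4.90 CPM in Control mice (median 3.58) and 5.00 to 8.69 CPM in High-Active mice (median 6.51). Its pseudogene Gm7094 was at 0.247 to 0.615 CPM in Control (median 0.407) and 0.669 to 1.27 CPM in High-Active mice (median 0.989). Both were higher in High-Active mice, with log2 fold changes of 0.81 (SE 0.11) and 1.17 (SE 0.17). Their sum, which the rule forces to separate the lines, was at 3.02 to 5.51 CPM against 5.67 to 9.89 CPM. The share of that sum on Gm7094 overlapped between the lines (8.02% to 14.7% in Control, 9.55% to 17.3% in High-Active mice). Gm7887 was at 1.11 to 2.76 CPM in Control (median 1.70) and 0.432 to 0.817 CPM in High-Active mice (median 0.556), a log2 fold change of -1.66 (SE 0.16). Pcnp, a nuclear protein that is no member, was at 145 to 160 CPM in Control and 152 to 182 CPM in High-Active mice, and the sum of the pair did not separate the lines.

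Members with known roles are described by role, and the remaining predicted genes follow. The largest gap among genes lower in High-Active mice belonged to Syce2, a part of the central element of the synaptonemal complex that joins paired chromosomes in meiosis. Syce2 was at 2.04 to 3.00 CPM in Control (median 2.38) and 0.434 to 1.10 CPM in High-Active mice (median 0.675), a log2 fold change of -1.75 (SE 0.14) and a median level 3.53-fold higher in Control. The lines were 0.87 apart on the log2 scale between their nearest mice. Of 13 genes of the synaptonemal complex and meiotic recombination listed, 5 were tested and Syce2 was the member among them. That list, chosen with earlier results known, is too short to read against the 0.25% of all genes tested that met the rule.

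Members whose proteins act in mitochondria were found in both directions. Dglucy, the D-glutamate cyclase of mitochondria, was at 9.94 to 13.5 CPM in Control (median 12.2) and 6.68 to 9.55 CPM in High-Active mice (median 8.10), a log2 fold change of -0.59 (SE 0.070). Cox15, which makes heme A for cytochrome c oxidase, was at 23.3 to 27.6 CPM against 16.3 to 22.9 CPM in High-Active mice, a log2 fold change of -0.29 (SE 0.053). Suclg2, a subunit of the GTP-forming succinyl-CoA ligase of the citric acid cycle, was higher in High-Active mice, at 21.1 to 27.4 CPM against 13.8 to 19.3 CPM in Control (log2 fold change 0.46, SE 0.062). Adck1, a kinase-like mitochondrial protein, was also higher, at 28.5 to 31.8 CPM against 21.6 to 27.2 CPM (log2 fold change 0.28, SE 0.036). None of the 90 respiratory chain subunits tested was a member, where 0.25% of all genes tested met the rule.

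The mitochondrial genome contributed mt-Tp, the transfer RNA for proline. Its 67 bases, read from the minus strand at chrM:15356-15422 (GRCm38), are shorter than 1 read and are shown to make that clear.
mt-Tp: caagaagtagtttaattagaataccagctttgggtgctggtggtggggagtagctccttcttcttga
It was at 1.26 to 2.84 CPM in Control (median 2.44) and 2.96 to 5.00 CPM in High-Active mice (median 3.80), a log2 fold change of 0.72 (SE 0.14). Control mouse 407 was lowest at 1.26 CPM, against 2.38 to 2.83 CPM in the other Control amphetamine mice. Of the 20 other mitochondrial genes tested, 10 passed the line threshold at an FDR under 0.1 in edgeR's quasi-likelihood test, 9 of them higher and 1 lower, against 14.5% of all genes tested. Reads on so short a gene can also belong to transcripts of the flanking mitochondrial genes.

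Proteins of secretion and membrane traffic included the member with the highest counts. Scg5 encodes 7B2, the chaperone of the prohormone convertase PC2 in neuroendocrine cells, and was at 169 to 339 CPM in Control (median 256) and 405 to 483 CPM in High-Active mice (median 432), a log2 fold change of 0.77 (SE 0.14). The Control mice fell into 5 at 169 to 198 CPM and 5 at 314 to 339 CPM, with both treatments on each side (3 saline mice in the lower set and 2 in the higher set). Neither of the Control families with 2 mice had a mouse on both sides of that step. High-Active mice held no such step.

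Wdfy1, an endosomal protein that binds phosphatidylinositol 3-phosphate, was at 55.5 to 70.4 CPM in Control (median 63.8) and 21.2 to 51.3 CPM in High-Active mice (median 45.0), a log2 fold change of -0.68 (SE 0.13). High-Active mice 872, 415 and 499 formed a lower set at 21.2 to 29.6 CPM, and the other 7 were at 43.5 to 51.3 CPM. Mrc2, an endocytic receptor for collagen, was at 2.84 to 6.43 CPM in Control (median 5.20) and 8.06 to 14.9 CPM in High-Active mice (median 10.6), a log2 fold change of 1.22 (SE 0.16). Snx9, a sorting nexin of endocytosis, differed less, at 9.00 to 13.0 CPM against 13.2 to 16.0 CPM (log2 fold change 0.39, SE 0.061).

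Lipid and small-molecule enzymes were split as well. Glo1 encodes glyoxalase 1, which detoxifies methylglyoxal, and was at 60.1 to 141 CPM in Control (median 108) and 143 to 263 CPM in High-Active mice (median 215), a log2 fold change of 1.04 (SE 0.14). Control mice 477, 448 and 469, all given saline, were at 60.1 to 67.1 CPM, and the other 7 were at 101 to 141 CPM. Sptlc2, a subunit of the serine palmitoyltransferase that begins sphingolipid synthesis, was at 26.7 to 31.1 CPM in Control and 31.6 to 39.7 CPM in High-Active mice (log2 fold change 0.28, SE 0.037). Pdxdc1, a protein with a pyridoxal-dependent decarboxylase domain, was at 88.8 to 98.5 CPM in Control (median 94.2) and 53.3 to 77.2 CPM in High-Active mice (median 63.8), a log2 fold change of -0.54 (SE 0.071). Its High-Active mice lay in a set of 5 at 53.3 to 57.2 CPM and a set of 5 at 70.5 to 77.2 CPM, and the Control mice showed no such division.

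Beside Cetn4, Sclt1 and Wdr11 have known roles at the centriole or cilium, and no list of such genes was examined. Sclt1, a component of the distal appendages that anchor the cilium, was at 8.48 to 11.6 CPM in Control and 11.8 to 14.9 CPM in High-Active mice (log2 fold change 0.42, SE 0.060). Wdr11, a WD repeat protein linked to vesicle traffic and the cilium, was at 50.8 to 56.5 CPM in Control (median 52.9) and 61.8 to 88.3 CPM in High-Active mice (median 73.7), a log2 fold change of 0.51 (SE 0.060). All 10 Control mice lay in a narrow band for Wdr11, and the High-Active mice were spread more widely above it.

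Ddx47, Csnk2a1 and Acvr1b had the smallest log2 fold changes of the 35. Ddx47, a DEAD-box helicase of ribosomal RNA processing, was at 38.1 to 45.1 CPM in Control and 30.2 to 38.0 CPM in High-Active mice (log2 fold change -0.25, SE 0.042). Csnk2a1, a catalytic subunit of casein kinase 2, was at 109 to 123 CPM against 89.5 to 109 CPM (log2 fold change -0.19, SE 0.031). Acvr1b, a type I receptor for activin, had the smallest difference of the 35, at 130 to 141 CPM in Control and 114 to 129 CPM in High-Active mice (log2 fold change -0.16, SE 0.029). In each of these 3 genes the nearest mice of the lines almost touched. Zfp791, a zinc finger protein, was at 0.938 to 1.47 CPM in Control (median 1.08) and 0.617 to 0.811 CPM in High-Active mice (median 0.715), a log2 fold change of -0.65 (SE 0.11). It was the 1 member among 332 tested genes named Zfp (0.301%), close to the 0.25% of all genes.

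Capn3, a calcium-dependent protease best known from muscle, was at 4.94 to 8.10 CPM in Control (median 6.15) and 1.37 to 4.43 CPM in High-Active mice (median 2.86), a log2 fold change of -1.14 (SE 0.18). Cdh19, a cadherin of cell adhesion, was at 9.64 to 14.0 CPM in Control and 14.1 to 23.1 CPM in High-Active mice (log2 fold change 0.51, SE 0.092). For Cdh19 the highest Control and lowest High-Active mice lay next to each other, while for Capn3 they were 0.15 apart on the log2 scale. Ccdc59, a coiled-coil protein, was at 21.6 to 29.2 CPM against 15.8 to 21.3 CPM in High-Active mice (log2 fold change -0.52, SE 0.067). Fam234b, a membrane protein of little known function, was at 190 to 253 CPM against 161 to 182.5 CPM (log2 fold change -0.35, SE 0.050). Mroh8, a protein with HEAT repeats, was at 0.779 to 1.78 CPM in Control (median 1.12) and 1.85 to 5.09 CPM in High-Active mice (median 3.31), a log2 fold change of 1.38 (SE 0.15).

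Predicted and non-coding genes gave the largest ratio and the widest spread. Gm5148, a predicted protein-coding gene on chromosome 3, had 22 reads over all 10 Control mice and 592 over the 10 High-Active mice, or 0.0226 to 0.172 CPM (median 0.0441) against 0.206 to 3.12 CPM (median 1.17). The log2 fold change was 4.58 (SE 0.67), from 1 to 7 counts in each Control mouse. Gm5148 passed the filter of more than 1 CPM in 3 mice only through High-Active mice. High-Active mice fell into 5 at 0.206 to 0.465 CPM and 5 at 1.88 to 3.12 CPM, and 2 families had mice on both sides. A pseudogene of the ribosomal protein gene Rps23 overlaps 10.2% of its exon bases on the opposite strand. Of the stretches of 100 bases in Gm5148 transcripts, 8.24% occurred in other genes on either strand, 328 of them in Rps23 itself. Whether reads of Rps23 were counted on Gm5148 was not tested.

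Gm3510, a long intergenic non-coding RNA, was at 2.05 to 3.13 CPM in Control (median 2.28) and 0.124 to 1.99 CPM in High-Active mice (median 1.33), a log2 fold change of -1.19 (SE 0.30). High-Active mice 415, 872 and 192, all given amphetamine, were at 0.124 to 0.319 CPM, while the other 7 were at 1.13 to 1.99 CPM. Gm4876, an antisense RNA at the Tes gene, was at 0.0236 to 0.711 CPM in Control (median 0.459) and 0.717 to 1.53 CPM in High-Active mice (median 1.20), a log2 fold change of 1.38 (SE 0.32). The lowest Control value of Gm4876 was below 3 counts. A gene listed by the identifier ENSMUSG00000074674, which matched no symbol of the annotation used, was at 1.96 to 2.78 CPM in Control (median 2.25) and 0.991 to 1.78 CPM in High-Active mice (median 1.26), a log2 fold change of -0.83 (SE 0.12).

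**Figure D2:**
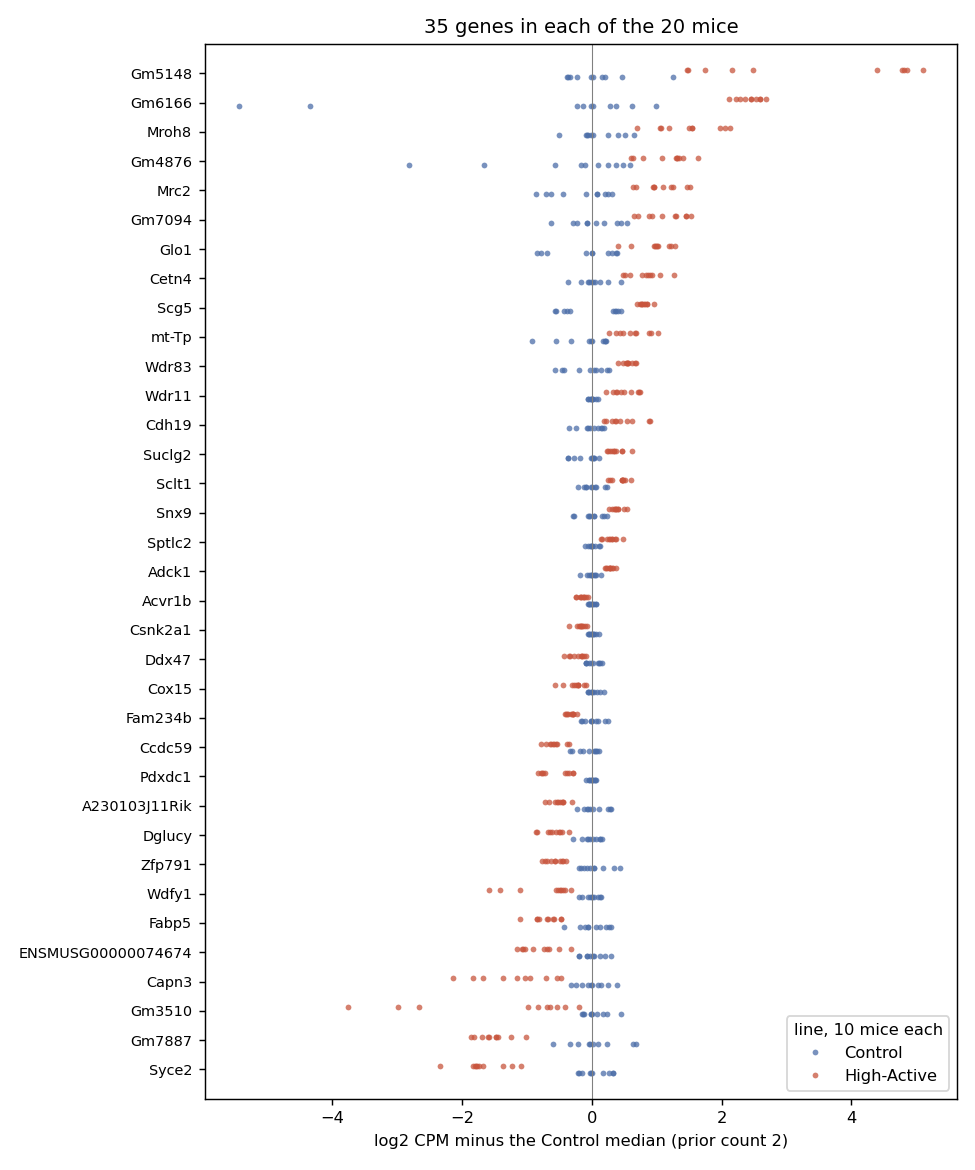
Each of the 35 genes in each of the 20 mice, as log2 CPM (prior count 2), minus the median of the 10 Control mice (blue, Control; red, High-Active). Rows are ordered by the log2 fold change between the lines, from Gm5148 (4.58) at the top to Syce2 (-1.75) at the bottom, and red and blue points do not overlap in any row because the genes were selected for that.

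**Figure D3:**
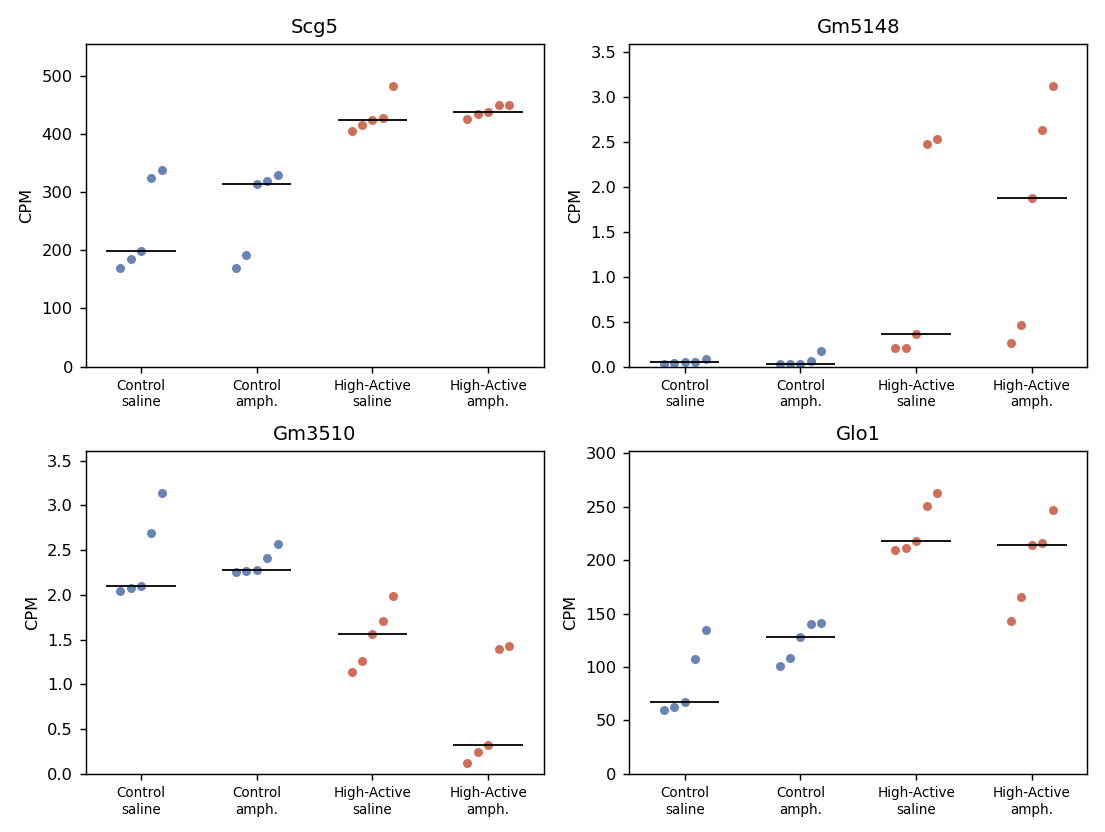
CPM (vertical axes, starting at 0) of Scg5, Gm5148, Gm3510 and Glo1 in each mouse, with 5 points per group and a bar at the group median (amph., amphetamine). Scg5 is divided among Control mice (169 to 198 and 314 to 339), Gm5148 among High-Active mice (0.206 to 0.465 and 1.88 to 3.12), and the 3 lowest mice for Gm3510 are High-Active amphetamine mice.

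The differences ranged widely in size. The medians of the lines were at least 2-fold apart for 9 of the 35 genes and under 1.5-fold apart for 16, with a median ratio of 1.51. Gm5148, Gm4876 and Gm7094 were under 1 CPM in every Control mouse and passed the filter only through High-Active mice. Gm7887 and Zfp791 were under 1 CPM in every High-Active mouse and passed only through Control mice. Syce2 also passed only through Control mice, since High-Active mouse 487 alone was above 1 CPM. The ratios of these genes were thus open to that choice by the filter. By absolute log2 fold change, 2 of the 35 stood among the 35 largest of the 14792 genes, and the median rank of the members was 637. Of 244 genes with a log2 fold change above 1 in either direction, 11 were members. The spread of the members within lines was close to that of other genes, with a median SD of log2 CPM of 0.18 in each line, against 0.15 in Control and 0.16 in High-Active mice over all genes tested.

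Lists of other gene families with no member were too short to read against the 0.25% of all genes tested that met the rule. No member was found among 25 glutamate receptor subunits, 14 GABA-A receptor subunits, 80 potassium channel genes, 18 genes of the canonical Wnt pathway, 15 actin regulators of the cofilin pathway, 14 glutathione S-transferases, 11 MHC genes named H2, 80 cytosolic ribosomal proteins, 82 pseudogenes named with -ps or 269 solute carriers. Predicted genes named Gm supplied 6 of their 544 tested genes (1.1%), above the 0.25% of all genes, and Riken clones 1 of 437 (0.229%), close to it. These shares were not tested.

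The edge of the rule was narrow. The gap between the nearest mice of the lines was under 0.05 on the log2 scale for 14 members and above 0.25 for 5, with a median of 0.059. Just inside lay Cdh19, with a highest Control value of 14.02 CPM and a lowest High-Active value of 14.07 CPM, and Ddx47, with a highest High-Active value of 38.03 CPM and a lowest Control value of 38.09 CPM. Just outside lay Mpc1, a subunit of the mitochondrial pyruvate carrier, with 53.96 CPM as its highest Control and 53.90 CPM as its lowest High-Active value, and Itpr2, a receptor for inositol trisphosphate (24.69 and 24.60 CPM). In the other direction, Bbip1, a subunit of the BBSome of cilia (highest High-Active 41.56, lowest Control 41.51 CPM), and the mitochondrial transporter Sfxn3 (114.9 and 114.5 CPM) lay just outside. When library sizes were scaled by TMM, 29 of the 35 still separated the lines, and the 6 that did not were Acvr1b, Glo1, Ddx47, Cox15, Cetn4 and Csnk2a1. The same 6 were lost with DESeq2 size factors.

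Genome position was not used by the rule. The 34 members with a position in GRCm38 lay on 16 chromosomes, with 5 on chromosome 6 and 4 each on chromosomes 2, 3 and 8. Within 1 Mb of another member lay 10 of the 34 (29.4%), and within 1 Mb of a member lay 494 of the 14616 other genes with a position (3.38%). The 10 formed 4 groups. Sptlc2 and Adck1 were 972199 bases apart on chromosome 12, both higher in High-Active mice. Cetn4 and Gm5148 were 401482 bases apart on chromosome 3, both higher. Ddx47 and Fam234b were 174201 bases apart on chromosome 6, both lower.

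The fourth group, on chromosome 8, held members of both directions. Syce2, A230103J11Rik, Wdr83 and Zfp791 lie between 84872111 and 85123095. A230103J11Rik, a non-coding transcript, was at 7.88 to 11.3 CPM in Control (median 9.25) and 5.57 to 7.46 CPM in High-Active mice (median 6.49), a log2 fold change of -0.57 (SE 0.074). Wdr83, a WD repeat scaffold protein of kinase signaling and splicing, was higher, at 8.99 to 16.0 CPM in Control (median 13.4) and 17.7 to 21.6 CPM in High-Active mice (median 19.6), a log2 fold change of 0.64 (SE 0.083). The 2 genes are 14575 bases apart, and with group means removed their log2 CPM correlated at r = -0.66 over the 20 mice, as a description. Control mice 369, 457 and 883 were lowest of their line for Wdr83 (8.99 to 9.97 CPM, the other 7 at 11.7 to 16.0). The same 3 were highest of their line for A230103J11Rik (11.0 to 11.3 CPM, the other 7 at 7.88 to 9.95). Whether the 2 genes are related apart from these 3 mice was not tested. Over the 9 pairs of members within 1 Mb the median r over the 20 mice was 0.017, against 0.039 for all pairs on different chromosomes. The mice share their libraries and families across these pairs. A230103J11Rik and Wdr83 both overlap genes on the opposite strand. Beside A230103J11Rik, Tnpo2 had a log2 fold change of 0.024 (SE 0.032, FDR 0.670 in the same fit by edgeR). Fbxw9, which overlaps 10.2% of the A230103J11Rik exon bases, had one of 0.10 (SE 0.062, FDR 0.304 by edgeR). Beside Wdr83, Dhps had one of 0.00059 (SE 0.045, FDR 0.995 by edgeR). Wdr83os, which overlaps 19.1% of the Wdr83 exon bases, was lower in High-Active mice (log2 fold change -0.16, SE 0.046, adjusted p = 0.046 by edgeR's quasi-likelihood test).

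Promoter sequence was examined because these neighbours differ in direction. The 300 bases from 250 before to 50 after the start are shown for Syce2 (chr8:84872008-84872307, plus strand) and Wdr83 (chr8:85080697-85080996, minus strand), from RefSeq on GRCm38.p6, with capitals at the motifs 5 motifs on either strand. These were GGGCGG, known from Sp1 binding sites, the motif CCAAT, known from NF-Y binding sites, the palindrome CACGTG, an E-box, the promoter element TATAAA near the start of some genes, and the palindrome TGACGTCA, the cyclic AMP response element.
Syce2: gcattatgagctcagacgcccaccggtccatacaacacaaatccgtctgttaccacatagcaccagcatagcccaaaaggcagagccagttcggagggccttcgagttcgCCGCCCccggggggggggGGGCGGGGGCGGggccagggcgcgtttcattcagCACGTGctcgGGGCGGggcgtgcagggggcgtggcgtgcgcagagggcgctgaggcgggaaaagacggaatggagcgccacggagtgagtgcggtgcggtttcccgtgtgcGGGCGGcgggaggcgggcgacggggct
Wdr83: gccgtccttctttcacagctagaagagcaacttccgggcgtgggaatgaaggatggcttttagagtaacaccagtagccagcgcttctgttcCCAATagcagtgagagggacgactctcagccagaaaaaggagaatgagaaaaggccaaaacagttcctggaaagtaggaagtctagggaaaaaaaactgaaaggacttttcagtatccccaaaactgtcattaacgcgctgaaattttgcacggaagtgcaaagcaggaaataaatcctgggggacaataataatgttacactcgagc
RefSeq lists a second entry for Syce2, from 84871861 to 84872160, with an earlier start. It holds GGGCGG but not CACGTG, which the entry shown here does hold. The other lower members of the group differed from Syce2. A230103J11Rik held none of the 5 motifs. Zfp791 held TATAAA in 1 entry and CACGTG in the other, and GGGCGG in neither. Whether a motif bears on the direction was not tested. Promoters were listed for 24 of the members, in 29 entries. GGGCGG stood in 16 of the 29 (55.2%) and in 35.7% of all 32851 promoters listed, CCAAT in 34.5% against 37.4%, CACGTG in 13.8% against 7.15%, TATAAA in 6.90% against 13.6%, and TGACGTCA in 0 of the 29 against 1.79%. The median number of CG dinucleotides was 19 in member promoters and 7 over all, a list that includes genes not expressed in striatum. These are matches of letters and not sites of binding.

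**Figure D4:**
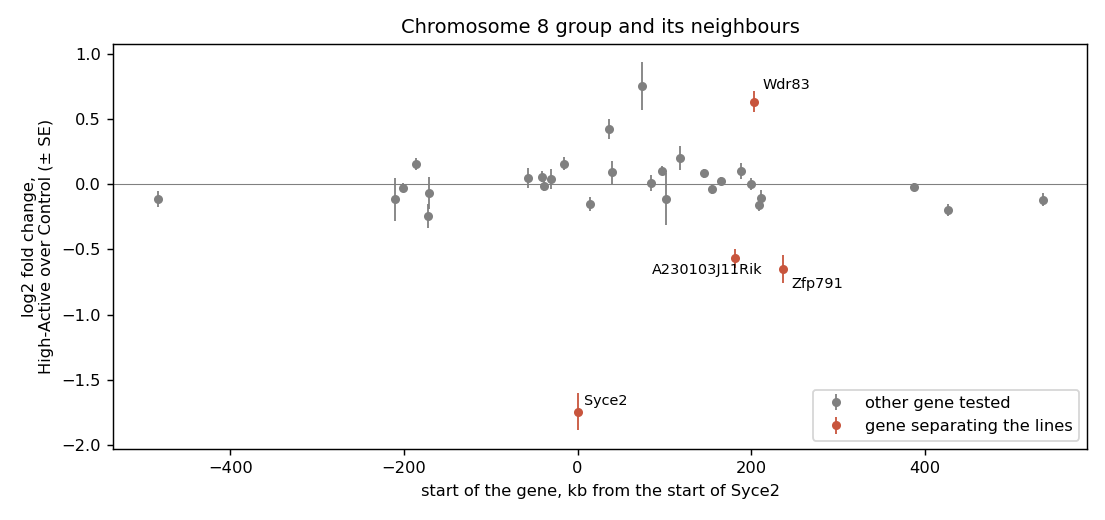
Log2 fold change, High-Active over Control, with its standard error (vertical axis), against the distance of each gene's start from the start of Syce2 in kb, for the 33 genes tested within 600 kb. Syce2 (-1.75), A230103J11Rik (-0.57) and Zfp791 (-0.65) lie below 0 and Wdr83 (0.64) above it, among 29 other genes, of which 8 passed the line threshold.

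Genes beside the members were compared with genes farther away, since the rule did not choose them. In edgeR's quasi-likelihood test of the line, 2149 of the 14792 genes (14.5%) had an FDR under 0.1. Of 474 nuclear genes within 1 Mb of a member that are no members, 98 (20.7%) passed it, and of 11211 genes farther away on the same chromosomes, 1620 (14.5%) passed it. The share was 23.5% within 0.1 Mb, 22.5% from 0.1 to 0.5 Mb, 18.1% from 0.5 to 1 Mb and 13.3% beyond 20 Mb. Leaving out the genes that share exon bases with a member, 94 of 459 (20.5%) passed. These shares are descriptions, since neighbours are not independent of each other. Of 143 pairs of a member and a called neighbour, 73 moved the same way. A neighbour of several members is counted once for each of them. Syce2, A230103J11Rik, Wdr83 and Zfp791 share neighbours, and Wdr83 differs from the others in direction. Their pairs cannot all agree, so the count does not decide whether neighbours follow the direction of a member. The counts were uneven, with 9 of 15 genes beside Snx9, 14 of 50 beside Syce2, 9 of 44 beside Capn3 and none of 2 beside Cdh19 or of 7 beside Gm7094.

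**Figure D5:**
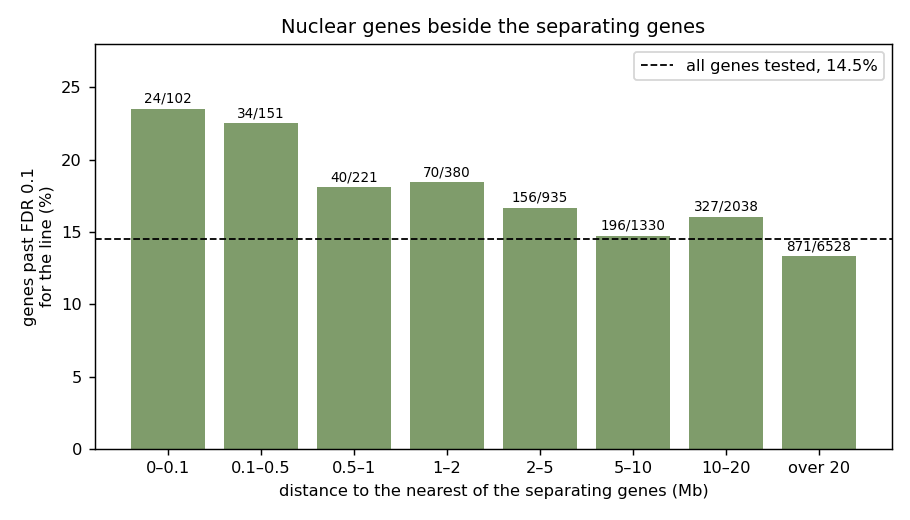
Percent of nuclear genes, members left out, with an FDR under 0.1 for the line (vertical axis, starting at 0), by distance to the nearest of the 35 genes in Mb, with counts above the bars. The bars run from 23.5% within 0.1 Mb to 13.3% beyond 20 Mb, without falling at every step, beside the 14.5% of all genes tested (dashed line).

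Family structure was examined because full siblings share alleles. In High-Active mice, differences between the 5 families took a median of 53.4% of the within-group variance of a member, against 44.0% over all genes tested. With 5 families for 10 mice, a large share lies between families even where siblings do not resemble each other. Neither value therefore measures a family effect. The share ran from 10.3% for mt-Tp to 91.4% for Ccdc59, with 90.5% for Sclt1. In Control mice, where 8 families for 10 mice leave little variance within families, it was 84.2% for the members and 87.1% for all genes. Averaged over families before the rule was applied, 257 genes separated the 8 Control families from the 5 High-Active families. The 35 members are among them by construction.

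The rule did not use the treatment, so the response to amphetamine was tested. In edgeR's quasi-likelihood test none of the 35 genes and 0% of all genes passed an FDR of 0.1 for amphetamine. At an unadjusted p under 0.05 stood 2 of the 35, against 12.5% of all genes, and DESeq2 called 391 genes at this FDR, none of them a member. Without High-Active mouse 415 the quasi-likelihood test called 339 genes, again none of them a member. The 2 were Acvr1b (log2 fold change 0.065, SE 0.029, adjusted p = 0.364) and Mroh8 (-0.33, SE 0.15). The median absolute response was 0.065 on the log2 scale over the members and 0.063 over all genes. A large response would have widened the spread within lines, which the rule disfavours.

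The response to amphetamine was next compared between the lines. None of the 35 genes and 0% of all genes passed an FDR of 0.1 for the line by amphetamine interaction in the quasi-likelihood test or in DESeq2, and at an unadjusted p under 0.05 stood 3 of the 35 against 2.97% of all genes. The 3 were Mroh8, Glo1 and Gm7887. Mroh8 was at 1.05 to 1.78 CPM in Control saline, 0.779 to 1.62 CPM in Control amphetamine, 3.27 to 5.09 CPM in High-Active saline and 1.85 to 3.35 CPM in High-Active amphetamine mice. Its response was 0.067 (SE 0.21) in Control and -0.73 (SE 0.20) in High-Active mice. Glo1 changed by 0.53 (SE 0.20) in Control and by -0.21 (SE 0.20) in High-Active mice, and Gm7887 by -0.41 (SE 0.21) and 0.29 (SE 0.23). The interaction had an adjusted p of 1 for each of the 3 in the quasi-likelihood test. The call depended on the test, since a likelihood-ratio test with robust dispersions in edgeR called 6 genes for the interaction at this FDR, among them the members Glo1 and Gm3510, and called 458 for amphetamine, among them Gm3510.

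Home-cage activity, the trait under selection, was tested for a relation to the members within groups. The slope on the log2 of the re-phenotyping distance, beside the 4 group means, passed an FDR of 0.1 in none of the 35 genes and in 0% of all genes by the quasi-likelihood test, and DESeq2 called 8 genes, none of them a member. At an unadjusted p under 0.05 stood 3 of the 35, Gm7094, mt-Tp and Csnk2a1, against 5.02% of all genes. The lowest adjusted p of a member was 0.924. The slope of Gm7094 was -0.36 per doubling of distance (SE 0.16), that of mt-Tp -0.30 (SE 0.13) and that of Csnk2a1 0.063 (SE 0.029).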

How the data were processed

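RNA of the bilateral striatum of 20 mice was sequenced as 100-base paired reads from stranded libraries. The authors aligned reads to GRCm38 with TopHat2 2.0.10 and used HTSeq 0.6.1 with Ensembl annotation for counting; the deposited values are counts per gene for each mouse, without normalization. The 5 lines of unassigned reads (16.0% to 17.5% of the total) were left out.

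CPM was computed over the gene reads of each mouse, and log2 CPM with a prior count of 2. The 35 members and all lists were chosen with earlier results of these data known. Genes over 1 CPM in 3 mice were fitted with edgeR 4.0.16 (TMM, quasi-likelihood) on the 4 group means, and adjusted by Benjamini-Hochberg over all 14792 genes with a threshold of 0.1. The SE of a log2 fold change is its size over the square root of the F statistic. Alternatives used DESeq2 1.42.0, limma 3.58.1 with family as a block, and leaving out each mouse. Mice of 1 family are not independent, so p values measure the spread between these mice. Symbols, exons and transcripts were taken from GENCODE M21 (GRCm38), which named 34 of the 35 members. Named in the text were the 12 genes of each direction with the largest log2 fold change, those at the edges of the rule, those near another member and those singled out by another contrast, and the remaining members, named after their values were seen, complete the 35. The fit and the rule were tested on simulated data.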

Additional observations from a re-analysis of the deposited data

Results flagged for a closer look

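Within the groups of 5 mice, 14 of 140 combinations of a gene and a group held 1 mouse far from the other 4. The measure was Dixon's gap ratio on log2 CPM with a prior count of 2, where chance gives about 1 in 20, or 7. The values given here are in CPM, on which a low mouse can stand less far apart. In Control saline, mouse 411 was lowest for Gm6166 (0.0526 CPM, the others 3.89 to 8.59) and for Suclg2 (14.7 CPM, the others 17.95 to 18.3). Mouse 883 of that group was lowest for Gm4876 (0.113 CPM, the others 0.495 to 0.711), lowest for Wdr83 (9.97 CPM, the others 14.0 to 16.0) and highest for Mroh8 (1.78 CPM, the others 1.05 to 1.13). In Control amphetamine, mouse 457 was lowest for Gm6166 (0.165 CPM, the others 3.67 to 6.60) and for Gm4876 (0.0236 CPM, the others 0.295 to 0.555). Mouse 407 was lowest for mt-Tp (1.26 CPM), mouse 409 highest for Csnk2a1 (123 CPM, the others 111 to 113) and mouse 454 highest for Ddx47 (43.6 CPM, the others 38.1 to 39.6). In High-Active saline, mouse 886 was lowest for Sclt1 (12.0 CPM, the others 13.55 to 14.0) and highest for Wdr83 (21.35 CPM, the others 19.2 to 19.8), and mouse 499 was lowest for Wdfy1 (29.6 CPM, the others 45.9 to 51.3). In High-Active amphetamine, mouse 487 was highest for Syce2 (1.10 CPM, the others 0.637 to 0.710).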

How the results depend on the processing

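Without Stx3 and Coq7, the number of genes separating the lines was 35 and became 37 with TMM library sizes, 38 with DESeq2 size factors, 40 with no filter on low counts and 35 with more than 1 CPM in 5 mice. With fewer mice or means the rule is easier to meet, and 606 genes separated the saline mice alone, 415 the amphetamine mice alone and 257 the family means. The members meet the rule in any subset of the mice and in means over them by construction. Leaving out 1 mouse gave 36 to 62 genes, the most without High-Active mouse 192, and without Control mouse 477 it was 50. With a likelihood-ratio test on robust dispersions, 1 member (Gm3510) passed for amphetamine, of 458 genes, and 2 (Glo1 and Gm3510) for the interaction, of 6 genes. In all other alternatives for amphetamine, the interaction and activity, leaving out each mouse included (0 to 0 members), no member passed. Of 875 line log2 fold changes under 25 alternatives, 871 stayed within 1 SD of the mice, 4 moved (Gm7887 and Zfp791 in saline or amphetamine mice alone) and 0 changed sign, which the rule fixes where mice were left out. Most of the 25 leave out 1 mouse, which can move the mean of a line by little against that SD. The members were also chosen on this difference, so these counts are a description and not a test. With the mitochondrial genes, chosen after seeing the data, the share of neighbours past the threshold was 21.9%. No paired analysis was possible by replicate number, because each mouse has its own. Full siblings were split between saline and amphetamine in several families, and with family as a random block in limma-voom 0 members and 0 genes passed for amphetamine or the interaction. Levels near 3 counts, as in Gm5148 and Gm4876, are limited by depth.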
